A study of Bos taurus with 16 samples.

Results

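Cells remove superoxide, peroxides and reactive aldehydes with a small set of enzymes that draw on glutathione, thioredoxin and NADPH. The 43 genes described here cover that set: the superoxide dismutases and catalase, the glutathione peroxidases, the peroxiredoxins, the thioredoxin and glutaredoxin systems, the enzymes that make and recycle glutathione, the glutathione transferases, and the regulators NFE2L2 and KEAP1 with their well known targets. The genes were listed by name and matched to the gene names of 3 deposited expression tables. Of the 43 genes, 42 were found in each table. The first blastocyst table lists 38959 genes, the second lists 37429 and the table of bovine embryonic stem cells (bESCs) lists 28303. GSTM1 had no row of that name in the blastocyst tables and GPX2 had none in the bESC table, where GSTM1 and GSTP1 each had 2 rows and the list therefore took 44 rows.

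The series asks what LY2955303 (LY), an inhibitor of retinoic acid receptor gamma, does to in vitro fertilized wild-type bovine embryos and to bESCs, and it holds 16 samples. In the first experiment 3 blastocysts grown with 10 μM LY from the 2-cell stage (LY10) were compared with 3 grown with the DMSO vehicle (DMSO), and per the study's methods the medium of these groups also held LIF, FGF2 and IGF1. In the second experiment 2 blastocysts each were grown with LY from the 2-cell stage (cell2_LY), with LY from the 16-cell stage (cell16_LY) or with vehicle (LY_DMSO), at an LY concentration that the labels do not give. The bESCs were grown in TIFX medium on mouse feeder cells, without LY (bESC_tifx) or with LY at a concentration the labels do not give (bESC_LY), in 2 libraries a group. Each blastocyst library came from 1 embryo. The labels do not say whether embryos of a group shared parents or a fertilization run, or whether the bESC libraries came from separate lines, so the p-values measure only the spread between these libraries.

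Superoxide dismutases turn superoxide into hydrogen peroxide, which catalase, the glutathione peroxidases and the peroxiredoxins then reduce to water. Glutathione is made from cysteine by glutamate-cysteine ligase (GCLC and GCLM) and glutathione synthetase (GSS), and glutathione reductase (GSR) and the thioredoxin reductases restore the spent forms with NADPH. KEAP1 marks the transcription factor NFE2L2 for degradation until oxidants modify it, after which NFE2L2 drives genes such as GCLM, SRXN1, NQO1, TXNRD1 and HMOX1.

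The FPKM values were turned back into whole reads and scaled within each table, which gives what is called a normalized count here. The libraries held 7905768 to 15137567 reads on genes in the first blastocyst table, 11336091 to 17343140 in the second and 29055323 to 31230432 in bESCs. Trophectoderm and epiblast markers were present in every blastocyst (KRT8 was the highest of the trophectoderm list and POU5F1 of the epiblast list). Both lists also had low members. CDX2 (2.98 to 109 normalized counts) and IFNT2 (1.99 to 245) of the trophectoderm list were low in several libraries. SOX2 (8.75 to 73.2) and FGF4 (0 to 3.11) of the epiblast list were low in all of them. The hypoblast list was present as well, at 10180 to 57928 normalized counts in sum with FN1 as its highest gene and GATA6 at 1703 to 4836, although its members SOX17 (0 to 3.98) and GATA4 (4.62 to 18.6) were low. The summed lists of 10 cumulus and 10 oocyte markers reached at most 352 and 117. In bESCs the pluripotency genes DNMT3B, POU5F1, LIN28A, SALL4 and NANOG (1799 to 2668) were high, whereas TDGF1 (21.1 to 109) and FGF4 (0 to 3.18) were low. COL1A1 of the fibroblast list reached a mean of 7491 in bESC_tifx, while POSTN, DCN and S100A4 of that list were at 18.5 or fewer in every bESC library. Libraries of the second experiment stood apart in their sex-linked reads. LY_DMSO replicate 1 and cell2_LY replicate 1 held both XIST (2438 and 3133 normalized counts) and the Y gene DDX3Y (1579.8 and 737). In the other 10 blastocysts the lower of XIST and DDX3Y was at most 372. That value was the XIST of cell16_LY replicate 2, which had DDX3Y at 1376. The 2 libraries said below to hold both are LY_DMSO replicate 1 and cell2_LY replicate 1, a division made after the data were seen. DMSO replicate 3 lay closer to the LY10 group than its fellow controls in several of the genes below, and it was the only library of its group with DDX3Y reads.

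In control blastocysts the set was dominated by a few short, abundant messages. Levels are compared between genes as FPKM, which corrects for gene length, and the 3 tables were scaled separately, so levels from different tables are only set side by side. FTH1, the ferritin heavy chain that stores iron, was the highest of all members at 5727 ± 3085 FPKM in DMSO (SD, n = 3), and its libraries read 3723, 4178 and 9279. It was followed by the cytosolic peroxiredoxins PRDX1 (3768 ± 1075) and PRDX2 (1417 ± 133), then by the cytosolic superoxide dismutase SOD1 (874 ± 409) and thioredoxin TXN (598 ± 77.9). FTH1, PRDX1 and PRDX2 held the same ranks in LY_DMSO (8319 ± 593, 3706 ± 926 and 1818 ± 71.6, n = 2), with PRDX6 (590 ± 124) and GPX1 (521 ± 12.2) after them. In bESC_tifx the leading 5 were FTH1 (809 ± 90.0), PRDX2 (444 ± 52.1), PRDX1 (437 ± 134), SOD1 (299 ± 72.8) and the phospholipid hydroperoxidase GPX4 (268 ± 48.1); PRDX2 and PRDX1 there did not differ beyond their spread.

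**Figure D1:**
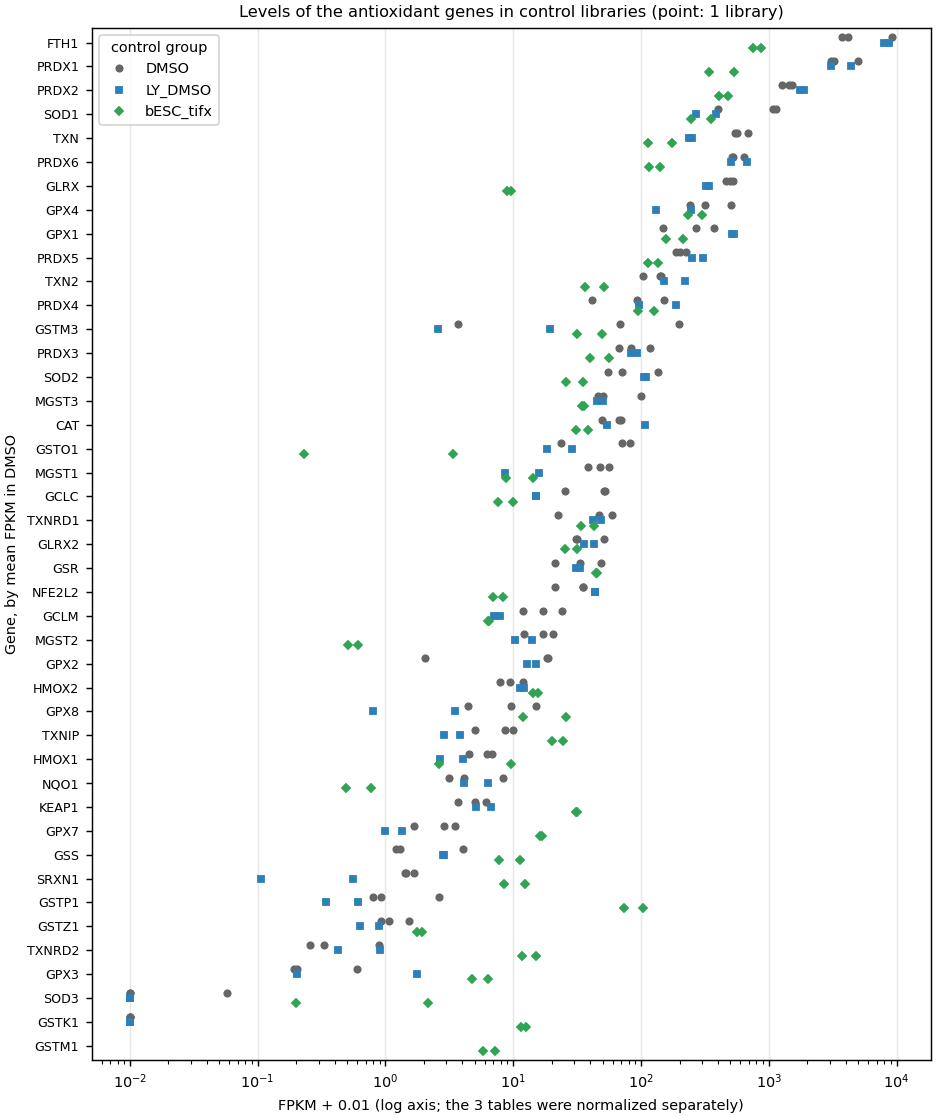
Levels of the antioxidant genes in the control libraries, as FPKM + 0.01 on a log axis, with 1 point per library and the genes ordered by their mean in DMSO; the 2 rows of GSTP1 and of GSTM1 in bESCs are summed. FTH1, PRDX1 and PRDX2 sit at the top in all 3 control groups, and SOD3 and GSTK1 at the bottom in blastocysts.

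At the other end, the secreted superoxide dismutase SOD3 had 3 reads in all over the 12 blastocysts, and the glutathione transferase GSTK1 had 0 reads in every one of them. For GSTK1 this allows at most 0.403 FPKM in a library, provided that its reads could be assigned to it in the counting. In bESCs GSTK1 had 1491 reads over 4 libraries, and its mean was 12.1 ± 0.813 FPKM in bESC_tifx. In the blastocyst annotation GSTK1 lies wholly within the antisense long noncoding gene LOC101905883, which had 32.4 to 105 normalized counts in blastocysts; the part of this overlap in the 0 was not tested, and the bESC table uses another annotation. The row named GSTP1 was also low in blastocysts (1.45 ± 1.03 FPKM in DMSO), but LOC281806, a second copy that RefSeq lists under the synonym GSTP1 (chr29:45441917-45444788, ARS-UCD2.0), had 572 ± 230 FPKM there. In bESCs the same split was seen between the 2 rows named GSTP1, at 0.234 and 0.501 FPKM for one row and 104 and 72.8 FPKM for the other in the 2 bESC_tifx libraries. LOC327709 and LOC783879, which carry GSTM1 as a synonym, had 16.5 ± 9.32 and 1.33 ± 1.10 FPKM in DMSO. These copies were looked up after the values were seen, and reads of near-identical copies can be split between them by the counting, so single values of GSTP1 and GSTM1 are uncertain.

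Between the first experiment and bESCs some members changed places. The glutaredoxin GLRX, which takes glutathione off oxidized proteins, was at 494 ± 35.0 FPKM in DMSO and 331 ± 14.4 in LY_DMSO but at 9.32 ± 0.460 in bESC_tifx. GPX7 and GPX8, peroxidases of the endoplasmic reticulum, were at 2.67 ± 0.930 and 9.73 ± 5.34 in DMSO, 1.16 ± 0.242 and 2.15 ± 1.93 in LY_DMSO, and 16.5 ± 0.583 and 18.8 ± 9.80 in bESC_tifx. Mitochondrial TXNRD2 read 0.481 ± 0.344 in DMSO and 13.4 ± 2.32 in bESC_tifx. These gaps were set between separately scaled tables and carry no test.

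LY10 against DMSO asks which members respond to 10 μM LY from the 2-cell stage. The test took genes whose normalized count averaged 10 or more, and a gene is called here at an unadjusted p under 0.05 and a log2 fold change beyond 1 in size, which are the study's own thresholds. Of 39 members tested, 6 were called lower (8.51% of all 14249 genes tested were) and 0 were called higher (6.2% of all genes). The 6 were the glutathione transferases GSTM3 and GSTO1, the ligase subunit GCLC, SOD1, and the endoplasmic reticulum peroxidases GPX7 and GPX8. An unadjusted p under 0.05 was reached by 9 members, a share near that of all genes (22.9%), and in 9 the groups did not overlap (28.1% of all genes). None passed after adjustment over all genes with limma (0.014% of all genes did), nor did any with voom weights, under which 6 had an unadjusted p under 0.05. The median log2 fold change of the members was -0.12 and that of all genes tested was -0.05. GPX3, SOD3 and GSTK1 fell under the filter, and a low gene such as GSTM3 or GPX7 passed it through the group in which it was high.

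**Figure D2:**
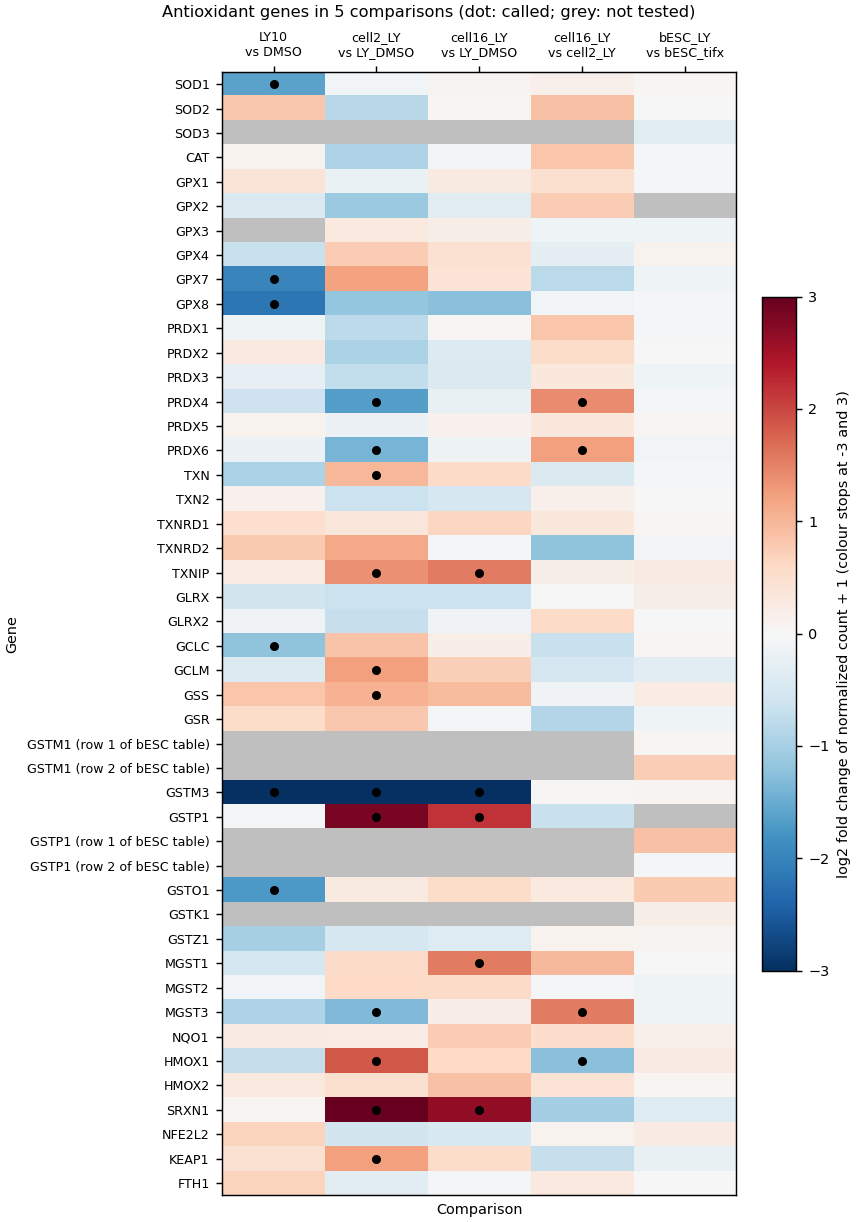
log2 fold change of each antioxidant gene in the 5 comparisons, in colour, with a dot where the gene was called and grey where it was not tested or has no row. GSTM3 was called lower in all 3 comparisons of LY-treated blastocysts with their controls (in none of them with voom weights), and no gene was called in bESCs.

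GSTM3, a mu class glutathione transferase (chr3:33652523-33655762, ARS-UCD2.0), stood furthest apart. Its normalized counts were 590.0, 1691 and 31.7 in DMSO and 6.82, 2.68 and 1.29 in LY10, so that every treated blastocyst lay below every control. The log2 fold change was -6.31 ± 1.28 (SE; adjusted p = 0.0783). Counted as reads, DMSO held 2489 and LY10 held 10, a ratio of 233 (95% counting interval 126 to 486, for counting error only). With voom weights it was no longer called (log2 fold change -6.62, adjusted p = 0.463).

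SOD1, the cytosolic copper-zinc superoxide dismutase (chr1:3824612-3833280), read 9917, 10342 and 3679 in DMSO and 2540.2, 1523 and 3439 in LY10. The third control came close to the highest treated blastocyst, but the groups did not overlap, and the log2 fold change was -1.61 ± 0.44 (adjusted p = 0.0959). SOD2, its manganese counterpart in mitochondria, went the other way without being called (1048, 821 and 2022 against 2184, 1506 and 2893; log2 fold change 0.82 with a 95% interval of -0.03 to 1.66). SOD2 therefore made up 6.13%, 4.68% and 25.4% of superoxide dismutase FPKM in the controls and 34.7%, 37.9% and 34.2% under LY. An exact permutation test of this share gave p = 0.1 (two-sided), the smallest value that 3 against 3 allows, so it could not decide whether the share differed. In the second experiment the mean share was 16.8% in cell2_LY and 24.7% in cell16_LY, against 25.2% in LY_DMSO.

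GCLC, the catalytic subunit that limits the rate of glutathione synthesis (chr23:6982221-7026848), read 2179, 2223 and 1089 in DMSO and 634, 672 and 1002 in LY10, without overlap (log2 fold change -1.21 ± 0.33, adjusted p = 0.0959). Its partner GCLM, the modifier subunit, overlapped between groups (411, 202 and 291 against 288, 139 and 256; -0.41, 95% interval -1.28 to 0.46). GSS and GSR, which complete and recycle glutathione, were not called either (log2 fold changes of 0.84 and 0.55). GSTO1, an omega class transferase, overlapped between groups (669.9, 769 and 222 against 128, 92.5 and 268) and was called lower at -1.72 ± 0.54 (adjusted p = 0.122).

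GPX8 read 112, 175 and 51.4 in DMSO and 13.6, 76.4 and 9.06 in LY10 (-2.17 ± 0.80, adjusted p = 0.161), and GPX7 read 21.7, 45.8 and 37.2 against 10.9, 14.7 and 2.59 (-1.97 ± 0.77, adjusted p = 0.178). The GPX8 groups overlapped and those of GPX7 did not, and GPX8 lies wholly within CDC20B on the other strand (0 to 29.8 normalized counts in this table), with the strand used in counting not stated. Both calls depended on the setting. With voom weights neither was called (-1.79 for each), and with quantile normalization GPX7 was not (-1.40). GPX7 was not called without DMSO replicate 2 (-1.75), DMSO replicate 3 (-1.90) or LY10 replicate 3 (-1.33). GPX8 was not called without DMSO replicate 1 (-2.09), DMSO replicate 2 (-1.77), LY10 replicate 1 (-1.86) or LY10 replicate 3 (-1.59). The abundant peroxidases of the same family were not called: GPX1 had a log2 fold change of 0.40 (95% interval -0.43 to 1.23) and GPX4 one of -0.67 (-1.50 to 0.17). GPX2, the epithelial form, overlapped widely (208, 209.9 and 23.0 against 31.4, 147 and 89.3).

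In the thioredoxin arm TXN read 3590.3, 4404 and 3498 in DMSO and 2002, 1595 and 2463 in LY10; the groups did not overlap, and the log2 fold change of -0.94 ± 0.23 (adjusted p = 0.0843) stopped short of the fold threshold. The reductase TXNRD1 (0.51), mitochondrial TXN2 (0.12) and TXNRD2 (0.79), the thioredoxin-binding TXNIP (0.22, 95% interval -0.53 to 0.97), and GLRX2 (-0.12) had intervals that held 0. GLRX was lower without overlap of the groups, at 9267, 8040.0 and 8657 against 5543, 4611 and 7934 (-0.56, 95% interval -1.11 to -0.01). None of the 6 peroxiredoxins was called, and their log2 fold changes lay between -0.61 (PRDX4) and 0.29 (PRDX2). PRDX2 nevertheless separated the groups (14565, 17546 and 16621 against 17919, 19889 and 21894).

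NFE2L2 read 2601, 1589 and 2596 in DMSO and 3424, 3369 and 3703 in LY10, with no overlap and a log2 fold change of 0.66 ± 0.24 (adjusted p = 0.160). KEAP1, its inhibitor, overlapped (111, 153 and 186 against 219.5, 207 and 180.0; 0.45, 95% interval -0.24 to 1.15). The targets NQO1 (0.24), SRXN1 (0.05) and HMOX1 (-0.71) were not called, and all of them had intervals that held 0. FTH1 read 36681, 41164 and 91422 in DMSO against 87922, 72296 and 86601, where DMSO replicate 3 lay above the LY10 blastocysts (0.67, 95% interval -0.13 to 1.46). The membrane-bound transferases MGST1 (-0.54), MGST2 (-0.08) and MGST3 (-0.92), as well as GSTZ1, HMOX2 (0.30), CAT (0.10) and the low GSTP1 row (-0.04), were not called. Of these, the signs of GSTP1 and MGST2 changed with the scaling.

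DMSO replicate 3 sat nearest to the treated group in GSTM3, SOD1, GCLC and GSTO1. Without it 10 members were called, and 24.2% of all genes (14.7% with every library). Without DMSO replicate 2 the count was 4, with 9.64% of all genes called. DMSO replicate 3 alone in its group carried DDX3Y (1706 normalized counts) and hardly any XIST (25.2), and among LY10 the library with DDX3Y was replicate 1 (1669); the part of embryo sex in these values was not tested. The summed fibroblast list of 10 genes was also higher in DMSO (888 to 2359 normalized counts) than in LY10 (274 to 425), with LUM the highest member in DMSO and POSTN and COL3A1 at 16.4 or fewer in all 6 libraries. The epiblast list, of which 9 genes were in the table, summed to less in DMSO (4413 to 6015) than in LY10 (6232 to 11854). Its highest gene POU5F1 read 2841, 2125 and 1896 in DMSO and 5549.5, 7052 and 3789 in LY10. Its other members overlapped between the groups, as SALL4 did at 1949, 1818 and 1246 against 1464, 1695 and 1067. The part of both lists in the antioxidant values was not tested. In a whole blastocyst fewer cells of a type and less RNA per cell cannot be told apart.

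The genes that feed these systems were followed in 8 further lists, which were written with earlier results of these data known. Over all genes tested in LY10 against DMSO, 6.2% were called higher and 8.51% lower. Transport and turnover of cysteine and glutathione, of which 17 of 20 genes were tested, had 6 called higher and 0 lower, and its median was 1.02 on the log2 scale (-0.05 over all genes). Among them SLC3A2, the heavy chain of the cystine carrier, read 450.2, 249.7 and 372 in DMSO and 1117, 2519 and 896 in LY10 (1.97 ± 0.40, adjusted p = 0.0783). CHAC1, which breaks glutathione down, read 61.3, 28.8 and 6.56 against 151, 186 and 117 (2.63 ± 0.71, adjusted p = 0.0953). The glutamate and cysteine carrier SLC1A1 was called higher as well (1.09 ± 0.32). In the list of NADPH supply 4 of 15 tested genes were called higher and 2 lower. PGD of the pentose phosphate pathway led it at 2.03 ± 0.27 (1242, 926 and 1084 against 4236, 6081 and 3298; adjusted p = 0.0711), followed by the folate enzymes ALDH1L2 (2.07 ± 0.32) and MTHFD1 (1.85 ± 0.37). The remaining lists had 1 higher and 2 lower of 18 (other selenoproteins), 1 and 1 of 13 (partners of NFE2L2), 1 and 1 of 20 (other thiol enzymes), 1 and 0 of 11 (haem and iron), 0 and 2 of 12 (sources of reactive oxygen) and 0 and 2 of 8 (other glutathione transferases). The 2 lower sources were CYBA, a subunit of the superoxide-making NADPH oxidase (-2.67 ± 0.61), and SMOX (-3.18 ± 1.06), and the 2 lower transferases were GSTA3 (-1.99 ± 0.66) and GSTA2 (-3.33 ± 1.12).

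The second experiment tested LY from the 2-cell stage again, with its own controls. In cell2_LY against LY_DMSO 8 of 40 members tested were called higher (8.71% of all 14529 genes were) and 4 lower (8.34%). An unadjusted p under 0.05 was reached by 19 members, against 24.6% of all genes, and in 30 the groups did not overlap (53.7% of all genes). No member passed adjustment with limma (0.0138% of all genes did) or with voom weights, under which 18 had an unadjusted p under 0.05. The higher genes were HMOX1, SRXN1, GCLM, KEAP1, GSS, TXN, TXNIP and the low GSTP1 row. NFE2L2 (log2 fold change -0.54) and its targets NQO1 (0.23) and TXNRD1 (0.33) were not called. The lower ones were PRDX4, PRDX6, MGST3 and GSTM3. The median was 0.08 over the members and 0.00 over all genes on the log2 scale. The 3 groups of this experiment shared 1 fit. Some marker lists moved with this comparison: the summed trophectoderm list was at 131070 to 158487 normalized counts in LY_DMSO and 164906 to 229520 in cell2_LY, the cumulus list at 136 to 234 and 279 to 352, and the oocyte list at 97.0 to 109 and 55.7 to 74.0, while the epiblast, hypoblast and fibroblast lists overlapped. Within the trophectoderm list its highest gene KRT8 overlapped (83959 and 74299 in LY_DMSO against 81743 and 118501 in cell2_LY). KRT18, GATA2, GATA3, TFAP2C and CDX2 were higher in cell2_LY, and SLC2A1 was lower (3162 and 4231 against 2601 and 2256). The part of these marker lists in the antioxidant values was not tested.

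HMOX1, heme oxygenase 1, which degrades heme (chr5:73623470-73630535), read 95.4 and 63.8 in LY_DMSO and 281 and 295 in cell2_LY (log2 fold change 1.87 ± 0.39, adjusted p = 0.0738). SRXN1, the sulfiredoxin that repairs overoxidized peroxiredoxins (chr13:60403292-60410158), read 3.71 and 21.3 against 227 and 75.0 (3.69 ± 0.87, adjusted p = 0.0797). GCLM read 171 and 192 against 454 and 399 (1.23 ± 0.30, adjusted p = 0.0833). In these 3 genes both treated blastocysts lay well above both controls, and they were called under every alternative setting. The size for SRXN1 rested on single libraries, at 2.56 without LY_DMSO replicate 1, 4.81 without LY_DMSO replicate 2 and 1.77 without both libraries that held XIST and DDX3Y reads.

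KEAP1 read 290.0 and 222 in LY_DMSO and 787 and 458 in cell2_LY (1.24 ± 0.35, adjusted p = 0.100), and it was not called without cell2_LY replicate 1 (0.85). GSS read 94.5 and 93.3 against 164 and 231 (1.04 ± 0.37, adjusted p = 0.145). Its call ended without LY_DMSO replicate 1 (1.05), LY_DMSO replicate 2 (1.03), cell2_LY replicate 2 (0.80) or cell16_LY replicate 2 (1.04), and also with quantile normalization (0.83), on log2(FPKM + 1) (0.84) and in a fit of only these groups (1.04). GCLC and GSR separated the groups below the fold threshold, at 928 and 927 against 1488 and 1902 (0.86 ± 0.26) and at 1107 and 1194 against 2441 and 1676 (0.81 ± 0.29).

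TXN read 2278 and 2190.1 in LY_DMSO and 6424 and 3126 in cell2_LY (1.00 ± 0.38, adjusted p = 0.156). It was not called without cell2_LY replicate 1 (0.48), LY_DMSO replicate 1 (1.03) or LY_DMSO replicate 2 (0.98), and it was at 1.52 without cell2_LY replicate 2. TXNIP, which binds and inhibits thioredoxin, read 166 and 125 against 477 and 289 (1.36 ± 0.45, adjusted p = 0.123) and was not called without cell2_LY replicate 1 (1.00) or LY_DMSO replicate 2 (1.16). The GSTP1 row read 8.34 and 4.62 against 57.9 and 45.4 (2.85 ± 0.76, adjusted p = 0.0917), while the abundant copy LOC281806 overlapped (5718 and 6111 against 3195 and 6352).

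On the lower side PRDX4, the peroxiredoxin of the endoplasmic reticulum, read 2192 and 4260.1 in LY_DMSO and 797 and 1187 in cell2_LY (-1.65 ± 0.38, adjusted p = 0.0782), and MGST3 read 555 and 502 against 216 and 203 (-1.33 ± 0.33, adjusted p = 0.0834). Both were called under every alternative. PRDX4 lies on chromosome X (chrX:119515820-119531948), and the library with XIST reads but none of DDX3Y, LY_DMSO replicate 2, was the highest; the part of embryo sex in this value was not tested. PRDX6, which also reduces phospholipid peroxides, read 12816 and 17313 against 3561 and 8900.1 (-1.40 ± 0.46, adjusted p = 0.120), and was not called without cell2_LY replicate 1 (-0.74) or LY_DMSO replicate 2 (-1.19).

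The other peroxiredoxins were not called in cell2_LY, with log2 fold changes of -0.79 (PRDX1), -0.96 (PRDX2), -0.74 (PRDX3) and -0.19 (PRDX5); the sign of PRDX5 changed with the scaling. Summed over the family, peroxiredoxin FPKM was 6120 to 7126 in LY_DMSO and 2574 to 5098 in cell2_LY. SOD2 read 2299 and 2239 against 1102 and 1491 (-0.82 ± 0.26), CAT 1876 and 3706 against 1186 and 1614 (-0.93 ± 0.35), and mitochondrial GLRX2 and TXN2 had log2 fold changes of -0.69 and -0.65; all 4 had an unadjusted p under 0.05. SOD1 did not follow its change in the first experiment (3509.9 and 5041 against 4229 and 3769.9; -0.08, 95% interval -0.72 to 0.57), and its sign changed with the scaling.

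GSTM3 read 31.5 and 237 in LY_DMSO and 2.18 and 0 in cell2_LY (-5.62 ± 1.48, adjusted p = 0.0885). As reads this was 291 against 2, a ratio of 130 (95% counting interval 35.6 to 1078). It was not called with voom weights (-6.24, adjusted p = 0.263), and it fell under the filter without LY_DMSO replicate 2 or with a minimum mean of 50. Among the controls of both experiments, the 3 libraries without DDX3Y reads (590.0, 1691 and 237) lay above the 2 with them (31.7 and 31.5). The part of embryo sex in this was not tested, and GSTM3 was at most 6.82 normalized counts in the LY-treated blastocysts, with and without DDX3Y reads.

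**Figure D3:**
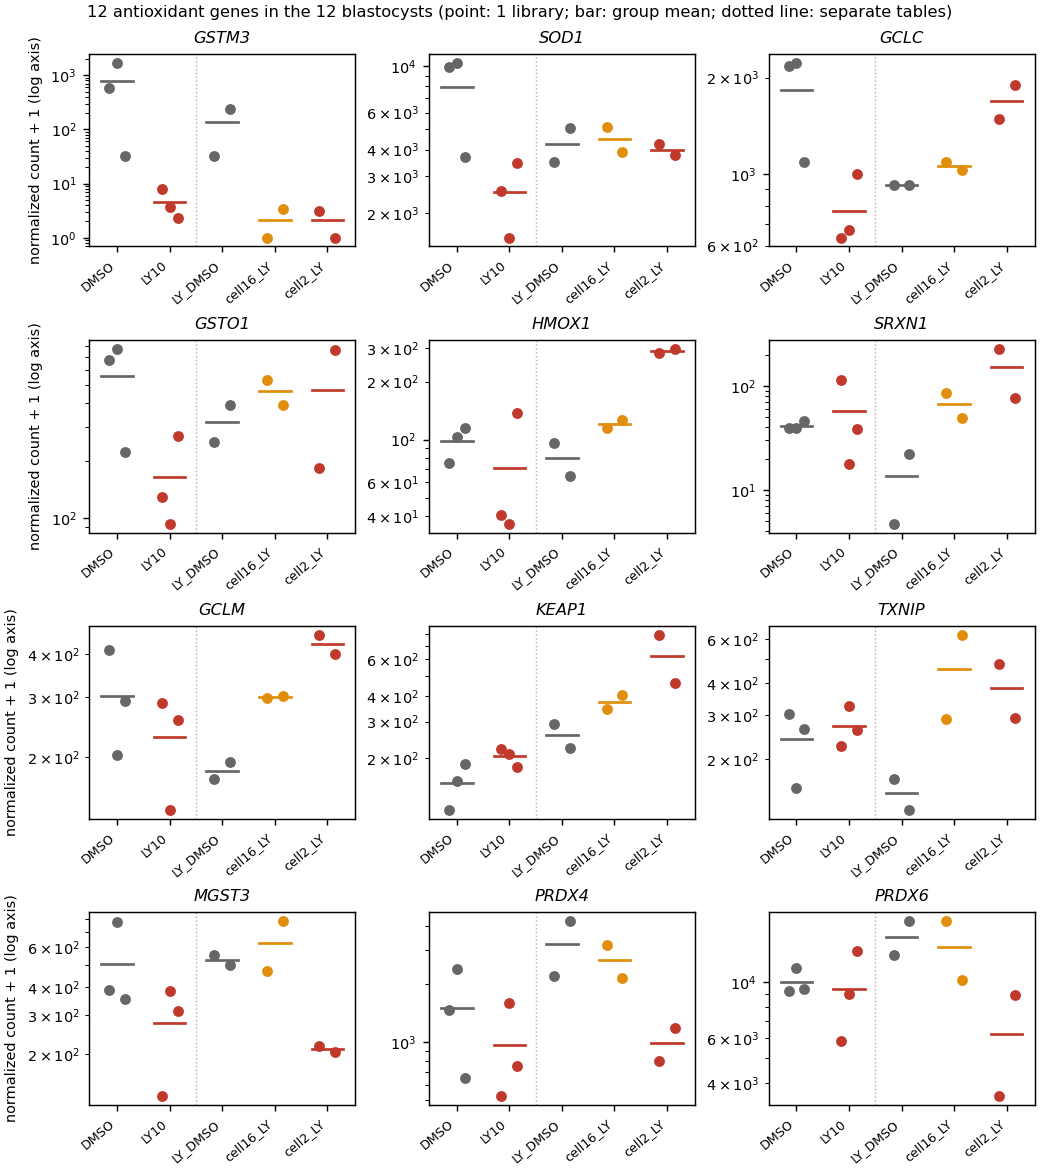
Normalized count + 1 (log axis) of 12 antioxidant genes in the 12 blastocysts, with 1 point per library and a bar at the group mean; the dotted line parts the 2 tables. GSTM3 lies near the floor in every LY-treated group, SOD1 and GCLC lie lower in LY10 than in DMSO, and HMOX1 and GCLM lie highest in cell2_LY within the second table.

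Cell2_LY replicate 1 decided several of these values. Its implied library size was 1.23 times its reads on genes, and dividing by the reads on genes in its place moved the all-gene median in cell2_LY against LY_DMSO from 0.00 to 0.24 on the log2 scale and the share of lower calls over all genes from 48.9% to 26.8%. Among the members 14 were called under that scaling. Without LY_DMSO replicate 2 there were 8 called (12.8% of all genes) and without cell2_LY replicate 2 there were 18 (23.4% of all genes), against 12 (17.0% of all genes) with every library. Leaving out LY_DMSO replicate 1 and cell2_LY replicate 1 together, a choice made after seeing the data, left 11 (2883 of all 14422 genes) and compared 1 library a group. In that fit PRDX6 (-0.96), TXN (0.51) and TXNIP (1.21) were not called.

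Among the further lists in cell2_LY, other thiol and peroxide enzymes had 5 of 20 called higher and 0 lower, led by the disulfide isomerase TXNDC5 (497 and 244.9 against 1197 and 1306; 1.84 ± 0.35, adjusted p = 0.0711) and the methionine sulfoxide reductases MSRB3 (2.51 ± 0.76) and MSRA (1.27 ± 0.40). Other selenoproteins had 3 of 21 higher, led by the selenium carrier SELENOP (1.69 ± 0.33), and partners of NFE2L2 had 3 higher, among them MAFF (2.05) and DPP9 (1.76), and 1 lower (BTRC, -1.07) of 13. Transport and turnover of cysteine and glutathione had 0 higher and 3 lower of 17: SLC3A2 (-1.50 ± 0.35), CTH (-1.01 ± 0.26) and CHAC1 (-3.38 ± 0.99). NADPH supply had 1 higher (ME1, 3.57 ± 0.85) and 2 lower (MTHFD1 and IDH1) of 15, sources of reactive oxygen had 1 higher (CYBA, 2.41 ± 0.70) and 1 lower (MAOB) of 14, other glutathione transferases 1 higher (PTGES) and 1 lower (GSTA3) of 8, and haem and iron 0 of 11. Beside these list counts, 8.71% of all genes were called higher and 8.34% lower.

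**Figure D4:**
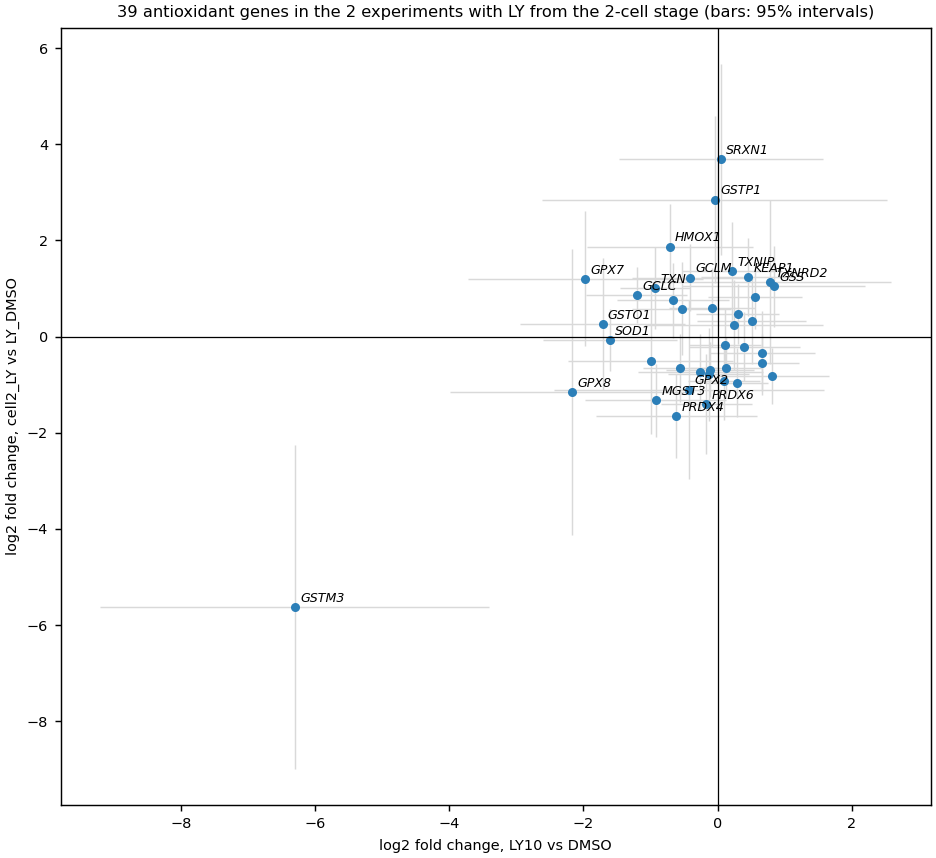
log2 fold change of 39 antioxidant genes in LY10 against DMSO (x axis) and in cell2_LY against LY_DMSO (y axis), with bars for the 95% intervals and names for genes beyond 1 in size on either axis. GSTM3 lies far below 0 on both axes, whereas GPX7, GCLC and TXN lie left of 0 and above it.

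The 2 experiments with LY from the 2-cell stage share no library, so their log2 fold changes can be set side by side. Of 39 members tested in both, 21 had the same sign and 18 (46.2%) the opposite sign. Over the 13019 genes tested in both, 52.0% had opposite signs, so members were close to all genes in this respect. GSTM3 was the only member called in both, although with voom weights it was called in neither. Of the 6 called in LY10, GCLC, GPX7 and GSTO1 had the opposite sign in cell2_LY (0.86, 1.20 and 0.26), SOD1 was at -0.08 and GPX8 at -1.16. NFE2L2 was higher in LY10 and lower in cell2_LY (4639 and 4637 against 2705 and 3755; -0.54, 95% interval -1.14 to 0.06), and TXN and PRDX2 also changed sides. Of the 7 related genes called in both experiments, 6 did so too. SLC3A2, CHAC1 and MTHFD1 were called higher in LY10 and lower in cell2_LY, and ME1, CYBA and SELENOP the reverse. GSTA3 was called lower in both (-1.99 ± 0.66 and -3.30 ± 1.28). In the second experiment it read 367 and 17.6 in LY_DMSO against 5.46 and 9.86 in cell2_LY, so the size there leaned on LY_DMSO replicate 1. The same share among all genes called in both is not given here, so 6 of 7 cannot be read as particular to these related genes. The control levels of the experiments differed for several of them, as for CHAC1, which read 61.3, 28.8 and 6.56 in DMSO and 379 and 416 in LY_DMSO. None of these differences between experiments was tested.

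LY from the 16-cell stage asks whether exposure that starts later moves the same genes. In cell16_LY against LY_DMSO 4 of 40 members were called higher (3.25% of all genes) and 1 lower (1.97%), and 8 had an unadjusted p under 0.05 (7.62% of all genes). None passed adjustment with limma or with voom weights (0 of all genes did with limma, 0%), and with voom weights 4 members had an unadjusted p under 0.05. The median was 0.15 over members and -0.01 over all genes on the log2 scale. MGST1, a membrane-bound transferase, read 223 and 122 in LY_DMSO and 659 and 364 in cell16_LY (1.56 ± 0.43, adjusted p = 0.521), and it was not called without cell16_LY replicate 1 (1.14). TXNIP read 166 and 125 against 287 and 622 (1.55 ± 0.45, adjusted p = 0.552) and was not called without cell16_LY replicate 2 (0.99). SRXN1 read 3.71 and 21.3 against 84.6 and 47.8 (2.66 ± 0.87, adjusted p = 0.577); its call ended without LY_DMSO replicate 1 (1.54) or cell16_LY replicate 1 (2.25), with voom weights (2.78) or on log2(FPKM + 1) (1.03).

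The GSTP1 row read 8.34 and 4.62 in LY_DMSO and 47.4 and 21.0 in cell16_LY (2.17 ± 0.76, adjusted p = 0.598), and was not called without LY_DMSO replicate 2 (1.80) or cell16_LY replicate 1 (1.60), or with voom weights (2.32). GSTM3 was the lower gene, at 31.5 and 237 against 0 and 2.33 (-5.59 ± 1.48, adjusted p = 0.521), again 2 reads against 291 (ratio 130, counting interval 35.7 to 1080), and it was not called with voom weights (-6.27, adjusted p = 0.735) or tested without LY_DMSO replicate 2. Below the fold threshold GSS (0.95), HMOX2 (0.88) and GCLM (0.72) had an unadjusted p under 0.05. GCLM was at 297 and 301, between its levels in LY_DMSO and cell2_LY, and HMOX2, the constitutive heme oxygenase, was at 331 and 359 in LY_DMSO and 598 and 672 in cell16_LY. NFE2L2 (-0.45), KEAP1 (0.55), GCLC (0.19) and SOD1 (0.09) were not called. Some summed marker lists also stood apart here. The trophectoderm list was at 167255 to 230344 normalized counts in cell16_LY (131070 to 158487 in LY_DMSO). Its sum followed KRT8 (97876 and 94211.5 in cell16_LY against 83959 and 74299) and PTGS2 (95011 and 33885 against 31861 and 23297). GATA3, CDX2 and IFNT2 were higher as well. TFAP2C (1093 and 1276 against 1749 and 1723) and SLC2A1 (3045 and 2209 against 3162 and 4231) were lower. The oocyte list was at 40.8 to 76.2 (97.0 to 109) and the fibroblast list at 658 to 789 (880 to 1216). The epiblast, hypoblast and cumulus lists overlapped, and the part of the marker lists in the antioxidant values was not tested.

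This comparison shares its controls with the one before it, so the values stand side by side only. SRXN1, TXNIP, GSTP1 and GSTM3 were called in both. In the supply lists ME1 (4.98 ± 0.85), SELENOP (1.10 ± 0.33), CYBA (3.04 ± 0.70), TXNDC5 (1.37 ± 0.35), MSRA (1.10 ± 0.40) and MAFF (1.58 ± 0.64) were called higher in cell16_LY. CHAC1 (-3.35 ± 0.99), SLC3A2 (-1.12 ± 0.35), SLC1A4 (-2.24 ± 0.71), AIFM2 (-1.02 ± 0.40) and XDH (-1.77 ± 0.73) were called lower, and the lists of haem and iron and of other glutathione transferases had 0 calls. Over all genes 3.25% were called higher and 1.97% lower.

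A direct test of the start stage, cell16_LY against cell2_LY, called 3 of 40 members higher with the later start (5.58% of all genes) and 1 lower (5.77%), and 9 had an unadjusted p under 0.05 (17.9% of all genes). After adjustment 0 passed with limma (0 of all genes, 0%) or voom weights, under which 9 members had an unadjusted p under 0.05. MGST3 read 471 and 786 in cell16_LY and 216 and 203 in cell2_LY (1.53 ± 0.33, adjusted p = 0.191), PRDX4 3177 and 2145 against 797 and 1187 (1.42 ± 0.38, adjusted p = 0.193), and PRDX6 17387 and 10169 against 3561 and 8900.1 (1.24 ± 0.46). The lower gene was HMOX1, at 114 and 125 against 281 and 295 (-1.26 ± 0.39, adjusted p = 0.195). In these 4 genes the blastocysts treated from the 16-cell stage lay nearer to LY_DMSO than those treated from the 2-cell stage.

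PRDX6 was not called without cell16_LY replicate 1 (0.85) or cell2_LY replicate 1 (0.58), with quantile normalization (0.89) or without both libraries that held XIST and DDX3Y reads (0.58), and HMOX1 was not called without cell16_LY replicate 1 (-1.20). Without cell2_LY replicate 2 the count was 10, with 2910 of all 14522 genes called (11.3% with every library). Of the regulators and synthesis genes GCLC (-0.67) and GSR (-0.88) had an unadjusted p under 0.05, whereas NFE2L2 (0.10), KEAP1 (-0.69), TXNIP (0.19) and GCLM (-0.51) did not; the signs of NFE2L2 and TXNIP changed with the scaling. SOD2 (0.88), CAT (0.84) and MGST1 (0.98) also had an unadjusted p under 0.05. Dividing by reads on genes moved the median of all genes from 0.04 to -0.18 and the share of lower calls from 50.9% to 75.0%. Of the supply genes ME2 (1.58 ± 0.45) and MAOB (2.37 ± 0.69) were called higher with the later start, and OPLAH (-1.43 ± 0.58), SLC1A4 (-1.69 ± 0.71), MAFG (-1.55 ± 0.56) and SESN2 (-1.26 ± 0.35) lower.

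In bESCs LY left no member called. Of 44 rows tested 0 were called higher (0.0375% of all 16012 genes were) and 0 lower (0.0375%), 0 had an unadjusted p under 0.05 (0.0999% of all genes) and 0 passed adjustment with limma (0 of all genes, 0%), with the same 0 counts for voom weights. With a replicate block 0 of the 44 rows and 146 of all 16012 genes were called (12 of all genes without it). The main fit had no block, so differences between the library numbers counted as spread in its tests and intervals. The log2 fold changes lay between -0.38 (SRXN1) and 0.87 (the low GSTP1 row), with a median of 0.01. For 32 rows the 95% interval of the log2 fold change stayed within 1 on either side of 0. These included GCLC (893 and 1178 in bESC_tifx against 982 and 1119 in bESC_LY; -0.53 to 0.59), SOD1 (10635 and 7507 against 11343 and 7483; -0.72 to 0.81), KEAP1 (2462 and 2384 against 2003 and 2146; -0.59 to 0.14), TXNIP (1766 and 2147 against 2166 and 2494; -0.21 to 0.72) and GCLM (315 and 311 against 253 and 238; -0.92 to 0.22).

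**Figure D5:**
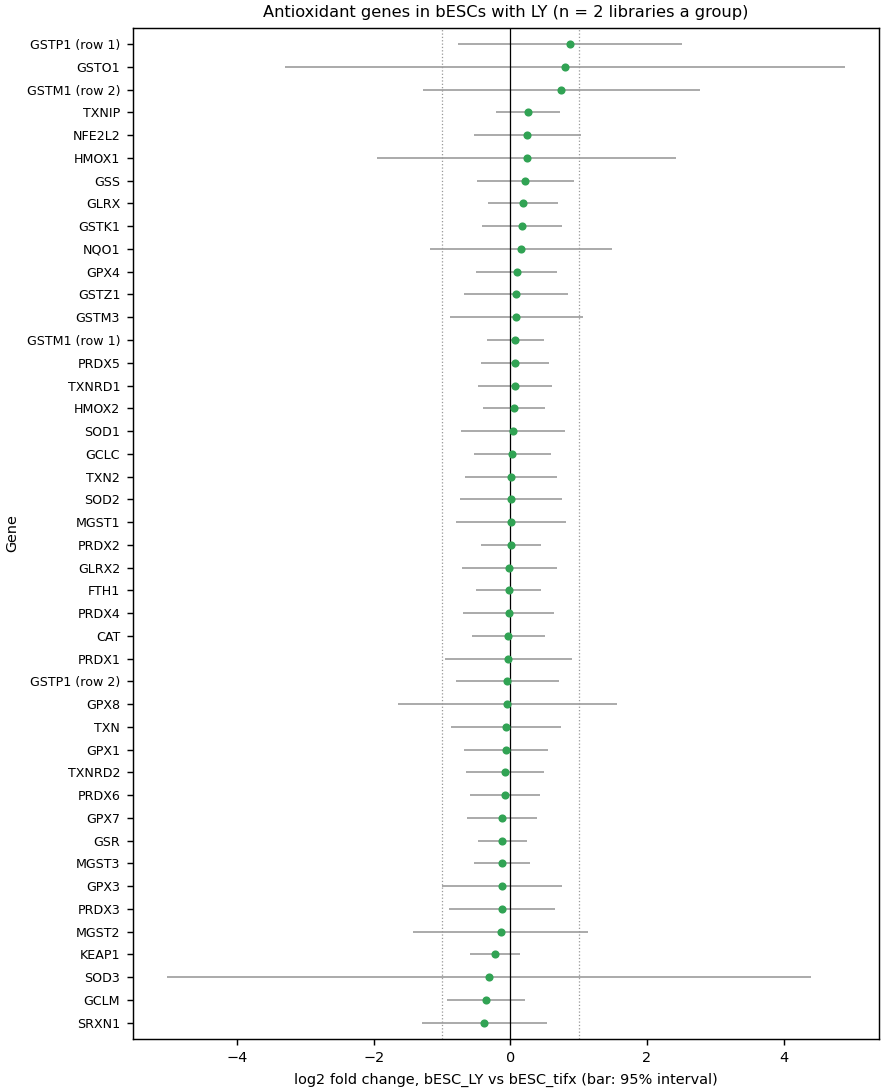
log2 fold change of bESC_LY against bESC_tifx for the 44 rows of antioxidant genes, with 95% intervals from 2 libraries a group; dotted lines mark -1 and 1. The widest intervals belong to SOD3, GSTO1 and HMOX1, and 32 of the intervals lie between the dotted lines.

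In the other 12 rows a change of that size was not excluded by the interval, among them NFE2L2 (766 and 634 against 1053 and 650.5; -0.54 to 1.03), GSTM3 (1911 and 1224 against 2133 and 1235; -0.89 to 1.06) and HMOX1 (-1.95 to 2.42). GSTM3, so low in LY-treated blastocysts, lay between 1224 and 2133 normalized counts in the bESC libraries. Some of these rows differed between the library numbers in both groups. HMOX1 read 727 in bESC_tifx replicate 2 and 200.3 in replicate 3, and 764 and 266 in the same numbers of bESC_LY. SOD3 read 86.6 and 7.67, and 83.6 and 4.78. GSTO1 read 251 and 16.3, and 258 and 49.7, and it was called higher when bESC_tifx replicate 2 was left out.

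Of the 44 rows 33 were lower in replicate 3 than in replicate 2 of bESC_tifx and 35 in bESC_LY, and 40 had the same sign in both groups. The median size of that difference was 0.38 and 0.36 on the log2 scale, against 0.09 for the difference between bESC_LY and bESC_tifx. These sizes are unlike measures. The difference between numbers is taken between single libraries, and that between groups is taken between means over both numbers. The libraries numbered 2 and 3 also differed in the summed trophectoderm list (43628 against 18535 normalized counts in bESC_tifx and 37997 against 16267 in bESC_LY). Its sums followed SLC2A1, KRT8 and KRT18. CDX2 was higher in number 3 (14.4 against 539 in bESC_tifx and 9.53 against 597 in bESC_LY), and so were GATA2, GATA3 and TFAP2C. The hypoblast sums also differed (20221 against 46266, and 20302 against 46467). They followed FN1 (6940 against 30829, and 7193 against 30747), while NID1 and APOA1 were lower in number 3. The fibroblast list stayed at 9288 to 9799. The part of these differences in the antioxidant genes was not tested.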

How the data were processed

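RNA-seq libraries of single bovine blastocysts (SMART-seq) and of bESCs were analysed as deposited. The authors trimmed reads with fastp, aligned them with HISAT2 2.0.5 (the methods also name STAR), counted them per gene with featureCounts 1.5.0-p3 and deposited FPKM, which scales reads to gene length and library size. Fold changes and p-values of the authors' own comparisons, made with DESeq2 1.20.0, stand in the same tables and were not used. In every library FPKM times gene length came in whole steps, so reads were recovered for 100% of values (within 0.02 reads), and the library size implied by the step lay within 1.27% of median-of-ratios scaling. Normalized counts are reads brought to 1 common library size per table (the geometric mean of its libraries); the depth in reads stands with the results. Intervals of read ratios cover counting error only.

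log2(normalized count + 1) was tested with limma 3.58.1 in R 4.3.3 (moderated test with a mean-variance trend, two-sided) for genes with a mean of 10 or more, in 1 fit per table, with Benjamini-Hochberg adjustment over all genes tested. A fold change on this scale understates that of low genes. A gene was called at p under 0.05 and a log2 fold change past 1. The fit was run on simulated counts as a check of the code. Those counts were drawn around a common mean per gene and group, without outlying libraries. The check therefore does not show how the fit performs on these embryos. Because the deposited unit is FPKM, no count model was run.

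The members and the related lists were chosen with earlier results of these data known. Each member called was named with its libraries, the 5 highest members of each control group were named for their level, NFE2L2, KEAP1, TXNIP, GCLC and GCLM were named in every comparison, and at most 3 called genes of a related list were named per comparison by smallest p. Gene positions come from RefSeq (ARS-UCD2.0), whose starts and ends matched 98.8% of the gene IDs shared with the blastocyst tables. Alternatives covered the pseudocount, the filter on low counts, the scaling, log2(FPKM + 1), sample and voom weights, a replicate block and the omission of each library; leaving out 2 libraries with both XIST and Y reads was added after the data were seen.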

Additional observations from a re-analysis of the deposited data

Results flagged for a closer look

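In 5 members every LY10 blastocyst lay on one side of every DMSO blastocyst, while both cell2_LY blastocysts lay on the other side of both LY_DMSO blastocysts. The log2 fold changes in LY10 against DMSO and in cell2_LY against LY_DMSO were 0.66 and -0.54 for NFE2L2, -0.94 and 1.00 for TXN, -1.97 and 1.20 for GPX7, 0.29 and -0.96 for PRDX2, and -1.21 and 0.86 for GCLC. These 5 were 12.8% of the 39 members tested in both experiments, and 9.78% of the 13019 genes tested in both showed such a pattern. The difference between the experiments was not tested.

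In 4 of 40 members the effect of LY was called different between the start stages, with 3 higher and 1 lower for the later start, beside 5.58% and 5.77% of all genes. The effect from the 16-cell stage minus that from the 2-cell stage was 1.53 for MGST3, 1.42 for PRDX4, 1.24 for PRDX6 and -1.26 for HMOX1 on the log2 scale. None of the 4 passed adjustment over all genes with limma, and the smallest adjusted p among them was 0.191 (MGST3).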

How the results depend on the processing

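The counts of members called were 6, 12, 5, 4 and 0 in LY10 against DMSO, cell2_LY against LY_DMSO, cell16_LY against LY_DMSO, cell16_LY against cell2_LY and bESC_LY against bESC_tifx. Voom weights left 3 in the first and 2 in the third, and a minimum mean of 50 left 3 in the third. Leaving out single libraries gave 4 to 10 in LY10 (10 without DMSO replicate 3), 8 to 18 in cell2_LY (18 without cell2_LY replicate 2, 8 without LY_DMSO replicate 2), 2 to 5 in cell16_LY (2 without cell16_LY replicate 1, 3 without LY_DMSO replicate 2), 3 to 10 in the comparison of start stages (10 without cell2_LY replicate 2) and 0 to 1 in bESCs (1 without bESC_tifx replicate 2). Where an arm was left with 1 library, that library was assumed to vary like the others. Without the 2 libraries that held both XIST and Y reads the counts were 11, 5 and 3 in the second experiment. The cause of these shifts was not tested.

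Over the 27 called gene results and their alternatives, 449 of 494 values were still called and 0 changed sign. Settings in which a gene fell under the filter, as for GSTM3 and GPX7, are not among these values. Some of the settings were also nearly alike, such as the alternative pseudocounts. The median over all members in cell2_LY against LY_DMSO did not keep its sign, at -0.16 without LY_DMSO replicate 1 and -0.18 without cell2_LY replicate 2. In LY10 against DMSO the share of lower calls over all genes was 57.8%, against 46.7% with TMM factors and 45.0% with quantile normalization.

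A replicate block gave 6, 12, 5, 4 and 0 calls. The labels do not say that equal numbers mark a shared source. Deviations of same-numbered libraries correlated at -0.117, 0.168 and -0.100 in the first experiment, from -0.232 to 0.121 in the second and at 0.789 in bESCs. Up to 4.09 normalized counts correspond to 3 reads in a blastocyst library, so changes of the lowest members were not detectable at this depth.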
